A study of Mus musculus with 15 samples.

Results

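The smooth muscle contractile genes are 10 genes whose products build, drive or set up the contractile machinery of vascular smooth muscle cells: Acta2, Tagln, Myh11, Cnn1, Mylk, Pln, Myocd, Lmod1, Myl9 and Des. They were taken by name, as the lines of the read count table whose Entrez gene ID belongs to one of these symbols. All 10 were found among the 17892 lines with values, and all 10 passed the filter on low counts that left 14853 genes for testing.

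RNA was sequenced from cells isolated from mouse brain for PDGFRβ, a receptor of vessel mural cells and fibroblasts. The 15 libraries fall into 4 groups: 4 from microRNA-210 knockout (KO) mice 24 h after neonatal hypoxic-ischemic brain injury (HI), 4 from KO mice after a sham procedure, 4 from wild-type (WT) mice 24 h after HI and 3 from WT sham mice. No strain, age in days, sorting method or design of the knockout is given in the labels, and nothing there ties a replicate to an animal of its own, so p-values measure only the spread between these samples. The line of Mir210 was blank in every library, so the knockout could not be checked in these data, and the blank does not show that the transcript was absent.

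In a smooth muscle cell, filaments of smooth muscle actin slide along filaments of smooth muscle myosin. Calcium entering the cell activates calmodulin and then myosin light chain kinase, which phosphorylates the regulatory light chain and switches the myosin motor on. Most genes of this machinery are turned on together by serum response factor (SRF), which binds a DNA element called the CArG box, with its coactivator myocardin. In brain vessels these genes mark the smooth muscle cells of arteries and arterioles, and some are also used by mural cells at the arteriolar end of the capillary bed, while capillary pericytes carry little of them.

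Promoter sequences are shown for 3 members to set the regulatory element beside the member called lower in both comparisons with KO HI below (Acta2), beside the one promoter that held an exact CArG box (Myl9) and beside the member that followed the other members least (Pln). Each runs 5′ to 3′ on the gene's strand from 250 bases before to 50 bases after the annotated start, as given by RefSeq for GRCm38.p6: chr19:34255324-34255623 on the minus strand for Acta2, chr2:156775214-156775513 on the plus strand for Myl9 and chr10:53337436-53337735 on the plus strand for Pln. Capitals mark a match on either strand to the CArG box (CC, a core of A and T bases, GG), to that box with 1 other base in its core, or to CATTCC, the element read by TEAD factors; no marked matches overlap.
Acta2: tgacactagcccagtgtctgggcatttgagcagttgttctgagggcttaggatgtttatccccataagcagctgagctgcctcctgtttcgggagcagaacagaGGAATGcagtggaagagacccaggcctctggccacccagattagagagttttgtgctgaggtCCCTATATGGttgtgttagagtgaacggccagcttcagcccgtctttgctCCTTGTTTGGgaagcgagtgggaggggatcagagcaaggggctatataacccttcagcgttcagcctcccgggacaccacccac
Myl9: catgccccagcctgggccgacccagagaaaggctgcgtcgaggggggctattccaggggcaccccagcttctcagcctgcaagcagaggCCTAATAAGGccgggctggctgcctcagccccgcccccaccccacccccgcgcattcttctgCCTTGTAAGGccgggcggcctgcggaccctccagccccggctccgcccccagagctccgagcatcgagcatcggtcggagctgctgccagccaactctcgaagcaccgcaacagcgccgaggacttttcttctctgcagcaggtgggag
Pln: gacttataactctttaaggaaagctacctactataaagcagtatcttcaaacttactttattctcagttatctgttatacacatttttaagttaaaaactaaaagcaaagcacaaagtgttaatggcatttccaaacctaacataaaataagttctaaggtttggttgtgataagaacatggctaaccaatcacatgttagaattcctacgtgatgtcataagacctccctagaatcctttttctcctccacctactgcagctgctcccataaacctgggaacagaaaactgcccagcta
The Myl9 promoter held an exact CArG box 161 bases before the start and a box with 1 other base 99 bases before it. The Acta2 promoter held boxes with 1 other base at 84 and 34 bases before the start, and GGAATG, which is CATTCC on the other strand, at 146 bases before it. The Pln window held no match to these motifs. RefSeq promoters were matched for 7 of the 10 members (Acta2, Cnn1, Mylk, Pln, Lmod1, Myl9 and Des), and 2 of the 7 held a CArG box or one with 1 other base. The starts of the Acta2, Cnn1, Mylk and Myl9 windows lie inside the annotated genes. Acta2 reaches 34255585 on the minus strand. Mylk begins at 34745199, and its window is chr16:34784700-34784999. Distances count from the start of each window, and other starts of these genes were not searched. Among all 32851 promoter windows of the same length, 1.63% held an exact CArG box, 9.98% held one with at most 1 other base, and 14.7% held CATTCC, which was also found in the promoters of Mylk and Lmod1. A match is a description of the letters and not a bound site.

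Total counts ran from 15436376 to 18118697 per library. Markers of other cells were present in every group. After HI, 7 of 17 pericyte, 2 of 11 fibroblast and 8 of 12 endothelial markers were called lower in KO than in WT. All 11 of 11 microglial markers and 1 of 6 tested neutrophil and monocyte markers were called higher. Of 14 tested striated muscle genes, 1 was called higher and 1 lower. Among all tested genes 12.4% were called, 6.46% as lower, and the striated muscle count is near that share. In sham, 0 genes of any marker list were called, against 0.0135% of all tested genes, which does not show matched cell makeup. Median log2 fold changes of KO sham over WT sham were 2.62 for neuronal, 2.25 for astrocyte, 2.26 for oligodendrocyte and 1.0 for choroid plexus markers. They were 0.7 for microglial, 0.36 for striated muscle, and 0.22 for neutrophil and monocyte markers. Pericyte, fibroblast, endothelial, and mesothelial and myofibroblast lists had -0.73, -0.91, -0.55 and -0.19. The summed level of 17 pericyte markers, all with counts, spanned 1842 to 6091 CPM (counts scaled to library size) in the KO HI libraries, 2970 to 8745 CPM in those of KO sham mice, 6433 to 9110 CPM after HI in WT and 8495 to 11745 CPM in the WT sham libraries. The microglial markers, 11 of 11 with counts, spanned 6666 to 14406 CPM in KO HI libraries, 3626 to 6391 CPM in those of KO sham mice, 2028 to 5305 CPM after HI in WT and 2695 to 3849 CPM in WT sham libraries. Neuronal transcripts were most uneven within the KO groups, less so in WT sham, and lay close together in WT HI. All 11 of 11 neuronal markers had counts. They summed to between 46.6 and 1281 CPM in KO HI, 67 and 2083 CPM in KO sham, 52.7 and 55.1 CPM in WT HI, and 69.1 and 193 CPM in WT sham. Acta2, Des, Pln and Myocd are also used by heart or skeletal muscle. Together, 25 genes of striated muscle summed to 12.4 to 27.8 CPM in KO HI libraries and 17.4 to 31.6 CPM in those of KO sham mice. The sums were 14.3 to 19.4 CPM after HI in WT and 14.2 to 19.4 CPM in WT sham libraries. Nppa was at 0 in all WT HI and WT sham libraries, and Myh1 and Myh2 were at 0 in WT sham. Pln and Myocd reached at most 9.49 and 10.7 CPM, both in KO sham library 4, which is below all of these sums. The part of striated muscle in their levels was not tested.

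Per length of transcript, the actin Acta2 and the myosin regulatory light chain Myl9 stood at the top in every group, and the calcium pump inhibitor Pln and the transcriptional coactivator Myocd at the bottom. Levels between genes are compared here as CPM per kilobase of the principal transcript. In WT sham they averaged 523 ± 58.7 for Acta2, 475 ± 53.9 for Myl9, 217 ± 22.4 for Tagln, 68.2 ± 6.60 for Myh11, 47.6 ± 5.63 for Mylk, 29.6 ± 3.35 for Des, 6.76 ± 0.432 for Lmod1, 3.25 ± 0.695 for Cnn1, 2.16 ± 0.304 for Pln and 1.31 ± 0.153 for Myocd (SD, n = 3). In WT sham, Acta2 and Myl9 were the only neighbours in this order whose libraries overlapped. The first 8 places were the same in all 4 groups. In the KO HI, KO sham and WT HI groups the top 3, the next 3 (Myh11, Mylk and Des) and the pair Lmod1 and Cnn1 each overlapped with their neighbours within the set, and neither step between those sets did. From Cnn1 to Pln the libraries overlapped in KO sham and not in KO HI or WT sham. The last pair changed places in WT HI, where Myocd averaged 0.759 ± 0.234 and Pln 0.638 ± 0.277 CPM per kilobase (SD, n = 4), with overlapping libraries.

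The 4 genes of the thin filament had their lowest group mean in KO HI. Acta2, smooth muscle α-actin, had 312, 518, 291 and 503 CPM in KO HI libraries 1, 2, 3 and 4, and 665, 1043, 1727 and 719 CPM in KO sham libraries 1, 3, 4 and 6. Its level was 832, 500, 1132 and 1176 CPM in WT HI libraries 1, 2, 4 and 5, and 1082, 936 and 1173 CPM in WT sham libraries 1, 2 and 3. Every KO HI library lay below every KO sham library and below every WT sham library, while WT HI library 2 fell within the KO HI range. Library values below follow the same order.

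Tagln, which encodes the actin-bundling protein transgelin (SM22), had 123, 203, 126 and 206 CPM in KO HI and 226, 354, 568 and 218 CPM in KO sham libraries. In WT libraries it had 312, 193, 416 and 386 CPM after HI and 354, 307 and 377 CPM in sham. As with Acta2, KO HI and KO sham did not overlap, the spread was widest in KO sham, and WT HI library 2 stood apart on the low side of its group. Lmod1, leiomodin, which starts new actin filaments, had 8.98, 11.7, 7.87 and 20.0 CPM in KO HI and 17, 27.7, 40.9 and 15 CPM in KO sham. WT libraries held 25.6, 17.7, 29.1 and 28.5 CPM of Lmod1 after HI and 27.2, 24.8 and 28.0 CPM in sham. Here KO HI library 4 lay above 2 of the KO sham libraries, so the KO groups overlapped. Cnn1, calponin, which binds actin and restrains the myosin motor, had 3.73, 7.02, 5.39 and 8.94 CPM in KO HI and 10.4, 12.4, 18.2 and 7.02 CPM in KO sham. In WT it had 8.86, 4.68, 16.9 and 15.6 CPM after HI and 7.72, 6.09 and 9.4 CPM in sham. For Cnn1 WT HI libraries 4 and 5 stood above every WT sham library and library 2 below them all.

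The 3 genes of the myosin motor and its switch also had their lowest group mean in KO HI. Myh11, the heavy chain of smooth muscle myosin, had 123, 205, 109 and 264 CPM in KO HI libraries and 278, 455, 782 and 274 CPM in KO sham libraries. WT levels of Myh11 were 251, 173, 401 and 390 CPM after HI and 461, 391 and 468 CPM in sham. The KO groups did not overlap for Myh11, and of the WT HI libraries library 4 alone reached into the WT sham range. Myl9, the regulatory light chain that is phosphorylated to start contraction, had 190, 260, 141 and 246 CPM in KO HI and 259, 425, 749 and 358 CPM in KO sham. Its WT values were 418, 264, 481 and 483 CPM after HI and 563, 466 and 579 CPM in sham. All 4 KO HI libraries were below all 4 WT HI libraries for Myl9, whereas KO HI library 2 slightly exceeded KO sham library 1. Mylk, the kinase that phosphorylates this light chain, had 125, 156, 85.8 and 235 CPM in KO HI and 163, 304, 508 and 272 CPM in KO sham. For Mylk the WT libraries gave 316, 221, 391 and 370 CPM after HI and 408, 323 and 386 CPM in sham. KO HI library 4 overlapped both KO sham and WT HI for this gene.

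Myocd, the coactivator of SRF that switches the program on, had 1.19, 3.17, 1.33 and 3.35 CPM in KO HI and 4.32, 5.78, 10.7 and 4.22 CPM in KO sham libraries. It had 3.71, 2.22, 5.02 and 4.02 CPM in WT HI and 6.81, 5.59 and 6.97 CPM in WT sham libraries. HI and sham libraries did not overlap in either genotype. Pln, phospholamban, the inhibitor of the calcium pump of the sarcoplasmic reticulum, had 1.36, 3.51, 1.51 and 1.84 CPM in KO HI and 4.39, 7.31, 9.49 and 2.74 CPM in KO sham. In WT, Pln had 0.972, 1.25, 1.3 and 2.43 CPM after HI and 4.69, 4.58 and 5.86 CPM in sham, from raw counts of 17, 22, 23 and 43 reads after HI and 82, 82 and 106 in sham. The WT groups did not overlap for Pln, and KO HI library 2 lay above KO sham library 6. Des, desmin, the intermediate filament protein of muscle, which brain pericytes also make, had 47.6, 46.2, 31.3 and 62.9 CPM in KO HI and 36.4, 72.3, 126 and 63.0 CPM in KO sham. Des in WT was 121, 79.9, 112 and 119 CPM after HI and 94.2, 78.1 and 96.9 CPM in sham. All KO HI libraries were below all WT HI and all WT sham libraries for Des, and the KO groups overlapped.

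**Figure D1:**
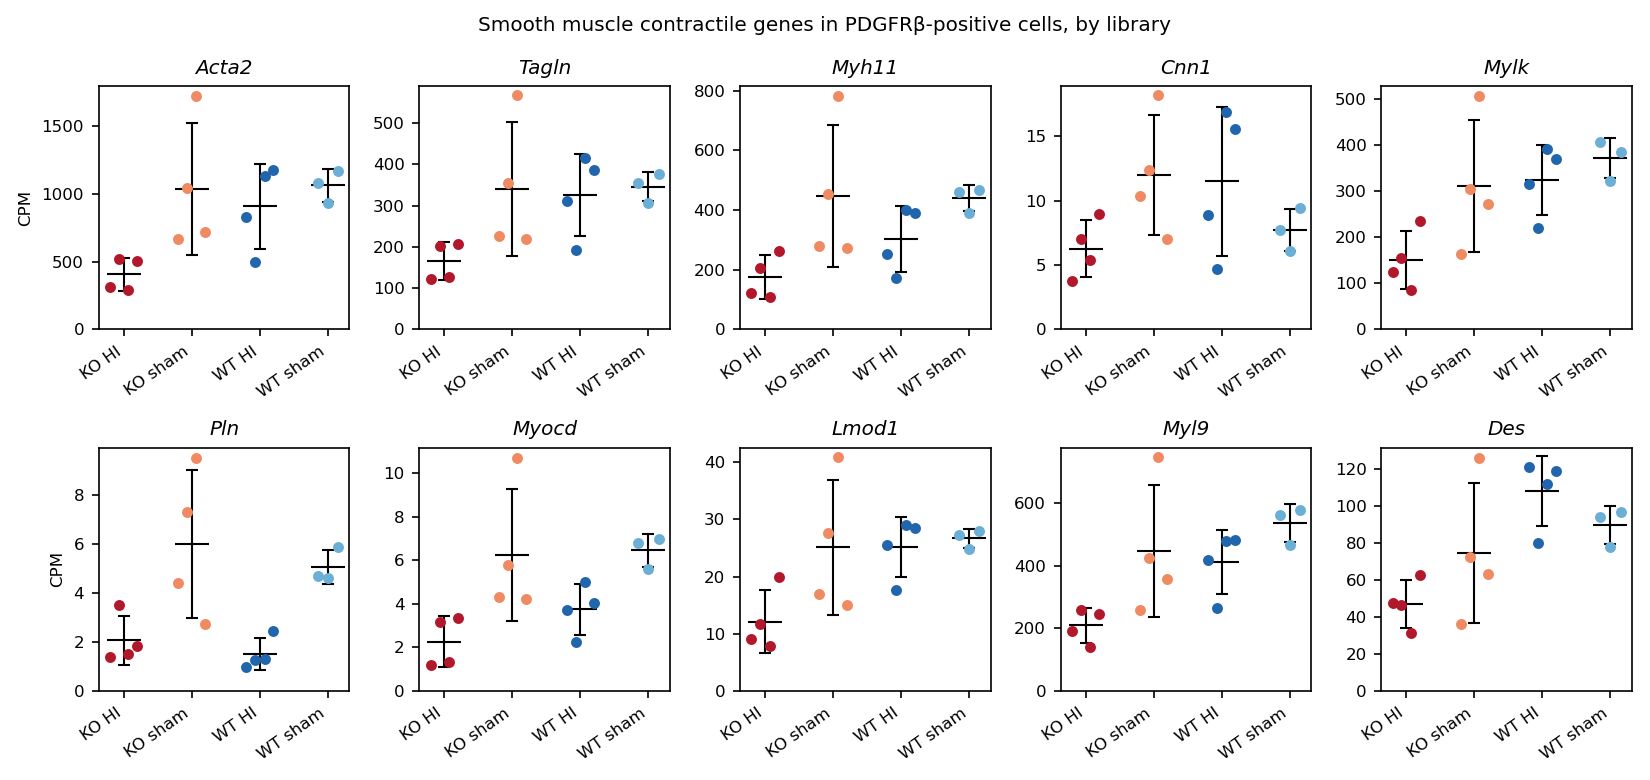
Level in CPM (vertical axes, linear, from 0) of each of the 10 contractile genes in KO HI, KO sham, WT HI and WT sham libraries; each point is 1 library, horizontal lines are group means and bars are SD. KO sham library 4 is the highest of its group in all 10 panels and WT sham libraries lie close together.

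Single libraries were high or low for nearly the whole set at once. KO sham library 4 was the highest of its group for 10 of 10 members, and WT sham library 2 the lowest of its group for 10 of 10. WT HI library 2 was the lowest of its group for 9 of 10 members, all but Pln. Among the KO HI libraries, library 3 was lowest for 6 members and library 1 for the other 4. The coefficient of variation of the members ran from 26.2% to 51.3% in the KO HI group, 39.0% to 53.4% in the KO sham group, 17.6% to 50.1% in the WT HI group and 6.4% to 21.4% in the WT sham group.

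After HI in KO mice, Acta2, Myl9, Myocd and Pln fell below their level in KO sham mice, and the other 6 members had negative values short of the threshold. All 10 members had a negative log2 fold change, with a median of -1.07 against -0.06 over all tested genes, and 4 of 10 were called lower by edgeR at an adjusted p under 0.05. Among all tested genes 7.01% were called in this comparison, 2.13% as lower. Less RNA per cell and fewer smooth muscle cells in the isolate cannot be told apart in such bulk samples. The summed level of 12 endothelial markers, all with counts, was 2546 to 5388 CPM in KO HI and 3078 to 8648 CPM in KO sham, and the microglial sums differed too, as given above; the part of these cells in the result was not tested.

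Acta2 averaged 406 ± 121 CPM in KO HI and 1039 ± 489 CPM in KO sham (SD, n = 4 each), 0.391 times the sham level, with a log2 fold change of -1.35 ± 0.34 (SE) and an edgeR adjusted p of 0.0323. Pln averaged 2.06 ± 0.991 CPM in KO HI against 5.98 ± 3.01 CPM in KO sham, with a log2 fold change of -1.54 ± 0.42 and an edgeR adjusted p of 0.0459. Myocd averaged 2.26 ± 1.16 CPM in KO HI against 6.24 ± 3.02 CPM in KO sham, a log2 fold change of -1.46 ± 0.41 with an edgeR adjusted p of 0.0471. Pln and Myocd are also the 2 members with the lowest levels per length. The light chain gene Myl9 averaged 209 ± 54.9 CPM in KO HI against 448 ± 212 CPM in KO sham and had a log2 fold change of -1.10 ± 0.30, with an edgeR adjusted p of 0.0473. The 4 called genes thus cover the thin filament, the myosin motor, calcium storage and transcription. The other members missed the threshold, with log2 fold changes and edgeR adjusted p of -1.35 ± 0.39 and 0.0534 for Myh11, -1.05 ± 0.32 and 0.0668 for Tagln, -1.05 ± 0.34 and 0.0793 for Lmod1, and -1.05 ± 0.34 and 0.083 for Mylk. Cnn1 and Des had the smallest values, -0.94 ± 0.40 and -0.67 ± 0.31, with edgeR adjusted p of 0.191 and 0.225. All 10 members had an unadjusted p under 0.05 in this comparison, as did 22.0% of all tested genes. KO HI and KO sham libraries did not overlap for 4 members (Acta2, Tagln, Myh11 and Myocd), and 2.78% of all tested genes were lower without overlap.

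These calls lay close to the threshold and moved with single libraries. They ended with the replicate number as a block, where 0 members and 0.491% of all genes were called. In that fit 9 members and 2497 of 14853 genes had an unadjusted edgeR p under 0.05. No member was called without KO sham library 3, KO sham library 4, KO HI library 1 or KO HI library 3. Of all genes 3.69%, 4.43%, 2.39% and 4.92% were called in these 4 fits. In each of them 8 of 10 members had an unadjusted edgeR p under 0.05. So did 2903 of 14801, 3049 of 14841, 2405 of 14828 and 3369 of 14764 genes, in the same order. Only 1 member was called without any 1 of the 3 WT sham libraries (4.53% to 4.76% of all genes), without WT HI library 1 (5.28%) or without WT HI library 4 (5.17%), 2 members without WT HI library 5 (4.99%), and 9 without KO sham library 1 (13.0%). DESeq2 called 8 of 10 members (13.0% of all genes) and limma-voom 2 (6.79%). A fit of the KO HI and KO sham libraries alone called 0 (0.111%), with 9 members and 1911 of 14385 genes at an unadjusted edgeR p under 0.05. A fit without the 5 libraries with the most neuronal RNA (KO HI 2 and 3, KO sham 1 and 3, WT sham 2) called 1 (16.8%). With the mean level of the pericyte markers as a covariate, 8 members were called lower and 26.5% of all genes were called; with neuronal and choroid plexus marker levels as covariates, 9 members and 17.3% of all genes. The log2 fold change of Acta2 lay between -1.6 and -0.99 over 24 alternative fits, and Acta2 was called in 17 of them.

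**Figure D2:**
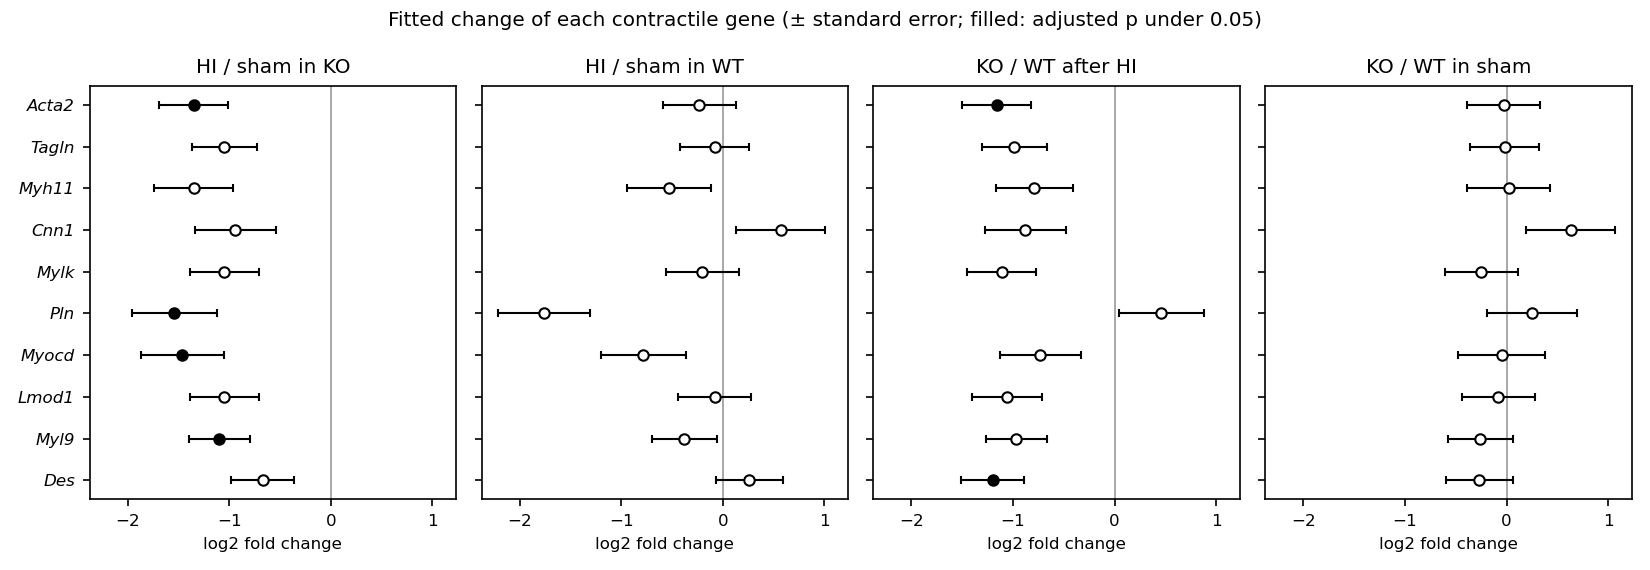
Fitted log2 fold change (horizontal axis) of each contractile gene, with its standard error as a bar, in 4 comparisons: HI over sham in KO, HI over sham in WT, KO over WT after HI and KO over WT in sham; filled points have an edgeR adjusted p under 0.05. All 10 genes lie left of 0 in the first panel, and 4 are filled there.

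In WT mice, no contractile gene passed the threshold after HI, and Pln had the largest difference from sham. No member was called by edgeR (1.82% of all tested genes were called, 0.444% as lower), and 1 of 10, Pln, had an unadjusted p under 0.05 (12.8% of all genes). DESeq2 called 1 member, also Pln (5.26% of all genes), and limma-voom 0 (1.89%). The median log2 fold change was -0.21, against -0.01 over all tested genes. Pln averaged 1.49 ± 0.646 CPM in WT HI (n = 4) and 5.05 ± 0.709 CPM in WT sham (n = 3), a log2 fold change of -1.76 ± 0.45 with an edgeR adjusted p of 0.0689. Over 24 alternative fits this value lay between -2.21 and -1.6, and Pln was called in 5 of them. Among them were the fits without KO HI library 2 (2.39% of all genes called) and with the 2 WT groups alone (17.1%). The others included those with neuronal and choroid plexus marker levels as covariates (9.16%) and with the pericyte markers as a covariate (6.51%). Myocd averaged 3.74 ± 1.16 CPM in WT HI and 6.45 ± 0.754 CPM in WT sham, a log2 fold change of -0.78 ± 0.42 with an edgeR adjusted p of 0.494. Pln and Myocd were the 2 members whose WT HI libraries all lay below WT sham, as did those of 15.8% of all tested genes. The remaining log2 fold changes ran from -0.53 for Myh11 to 0.57 for Cnn1, with Acta2 at -0.23 ± 0.36 and Tagln at -0.08 ± 0.34.

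After HI, Acta2 and Des were lower in KO than in WT libraries, and 7 further members had negative values that missed the threshold. Of 10 members, 2 were called lower by edgeR, where 12.4% of all tested genes were called and 6.46% were lower; 7 had an unadjusted p under 0.05, as did 31.2% of all tested genes. The median log2 fold change was -0.98, against 0.06 over all tested genes. Des averaged 47.0 ± 12.9 CPM in KO HI and 108 ± 19.0 CPM in WT HI (SD, n = 4 each), a log2 fold change of -1.20 ± 0.31 with an edgeR adjusted p of 0.0259. Acta2 averaged 406 ± 121 CPM in KO HI and 910 ± 313 CPM in WT HI, a log2 fold change of -1.16 ± 0.34 with an edgeR adjusted p of 0.0403. The called pair thus holds the intermediate filament gene and the actin gene. Just beyond the threshold were Mylk at -1.11 ± 0.34 (edgeR adjusted p 0.0501), Myl9 at -0.97 ± 0.30 (0.0523), Lmod1 at -1.06 ± 0.34 (0.0563) and Tagln at -0.99 ± 0.32 (0.06). Cnn1, Myh11 and Myocd had log2 fold changes of -0.88 ± 0.40, -0.79 ± 0.38 and -0.73 ± 0.40, with edgeR adjusted p of 0.157, 0.176 and 0.231. Pln alone had a positive value, 0.46 ± 0.42, with an edgeR adjusted p of 0.457. KO HI and WT HI libraries did not overlap for 2 members, Myl9 and Des, and 11.5% of all tested genes were lower without overlap.

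The markers of other vessel cells were lower in the same KO libraries. Of 17 pericyte markers 7 were called lower in KO after HI, Pdgfrb, Rgs5 and Cspg4 among them. Of 12 endothelial markers 8 were lower, while 11 of 11 microglial markers were higher. Among all tested genes 6.46% were called lower and 885 of 14853 higher. Of 11 fibroblast markers 2 were called lower, Fbln1 and Igfbp5, and all 11 had negative values, with a median log2 fold change of -1.07. Pdgfrb averaged 356 ± 174 CPM in KO HI and 925 ± 125 CPM in WT HI, with a log2 fold change of -1.38 ± 0.35 and an edgeR adjusted p of 0.0246. With the mean level of the pericyte markers as a covariate, 0 of 10 members were called by edgeR (15.7% of all genes were called). Of the members 0 had an unadjusted edgeR p under 0.05, against 5093 of 14853 genes. The log2 fold change of Acta2 was then -0.42, that of Des -0.19 and the median of the members -0.17. This pericyte level (mean log2 CPM) did not overlap between the groups, at 5.5 to 7.06 in KO HI and 7.23 to 7.76 in WT HI. The covariate fit therefore cannot separate it from genotype. With neuronal and choroid plexus marker levels as covariates 1 member was called, Des (17.9% of all genes). RLE scaling called 5 members (13.5% of all genes), DESeq2 6 (22.9% of all genes) and limma-voom 5 (14.5%). With the replicate number as a block 0 members were called (0.141%), with 6 members and 3062 of 14853 genes at an unadjusted edgeR p under 0.05. No member was called without WT HI library 1, 4 or 5 (3.24%, 3.63% and 3.76% of all genes) or without KO HI library 1 or 3 (4.51% and 6.96%). In these fits 6 or 7 members had an unadjusted edgeR p under 0.05. So did 3416 of 14828, 3456 of 14830, 3485 of 14827, 4179 of 14828 and 3448 of 14764 genes, in the same order. Only 1 member was called without any 1 WT sham library (9.22% to 9.33% of all genes) or KO sham library 3 (10.5%), and 3 without KO sham library 6 (11.8%). The count was 6 without KO sham library 1 (24.4%), KO sham library 4 (14.2%), WT HI library 2 (13.6%) or KO HI library 4 (18.3%).

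Without injury, no contractile gene passed the threshold between KO and WT. No member was called by edgeR in KO sham against WT sham, by DESeq2 or by limma-voom, and 0 had an unadjusted p under 0.05 with edgeR. Among all tested genes, edgeR called 0.0135% and gave 8.56% an unadjusted p under 0.05; DESeq2 called 0.215% and limma-voom 0%. The median log2 fold change was -0.04. Acta2 averaged 1039 ± 489 CPM in KO sham (n = 4) and 1064 ± 120 CPM in WT sham (n = 3), and Myh11 447 ± 239 CPM in KO sham and 440 ± 42.6 CPM in WT sham. KO sham libraries lay on both sides of the WT sham range for 9 of 10 members; for Cnn1 they lay within and above it. Cnn1 had the largest log2 fold change, 0.63 ± 0.44, and Des the lowest, -0.27 ± 0.33. The median rests on KO sham library 4: without it the median was -0.41, 9 of 10 members had negative values and 2 had an unadjusted edgeR p under 0.05, as did 3167 of 14841 genes, while without any other single library the median lay between -0.13 and 0.11. A missed threshold does not show that the levels were the same.

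Whether the HI response differed between genotypes was tested directly, as the response in KO minus the response in WT. No member was called by edgeR, which called 0 genes in all (0%), by DESeq2 (0.148% of all genes) or by limma-voom (0%). Unadjusted, 2 members had an edgeR p under 0.05, as did 5.17% of all genes: Cnn1 at -1.51 ± 0.59 (adjusted p 0.932) and Acta2 at -1.13 ± 0.49 (adjusted p 0.932). DESeq2 gave 4 members and 1010 of 14853 genes an unadjusted p under 0.05. The edgeR count of 2 moved with single libraries: it was 0 without KO sham library 4, WT HI library 4 or WT sham library 2, and 7 without KO sham library 1, where 1559 of 14776 genes had such a p. The median over the members was -0.89, against -0.02 over all tested genes, and lay between -1.11 (without KO HI library 4) and -0.53 (without KO sham library 4) with 1 library left out. Pln had 0.22 ± 0.61, its response being -1.54 in KO and -1.76 in WT. That the calls fell in KO and not in WT is therefore not shown to be a difference between genotypes. Each group takes part in more than 1 of these comparisons, so their values are not independent of each other: KO HI serves both as the injured KO group and as the KO group after injury.

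Relative to Pdgfrb in the same library, all 10 contractile genes had their highest group mean in KO sham, Des by the narrowest step. These ratios of CPM are descriptions, since the cells were isolated for PDGFRβ. Pdgfrb itself averaged 516 ± 219 CPM in KO sham (n = 4) and 860 ± 154 CPM in WT sham (n = 3). Its log2 fold change between them was -0.74 ± 0.37, with an edgeR adjusted p of 0.477. A ratio also rises where Pdgfrb is lower, so the KO sham ratios do not show more contractile RNA. The ratio of Acta2 to Pdgfrb was 0.858, 1.9, 1.5 and 0.844 in KO HI libraries and 2.65, 2.1, 2.2 and 1.35 in KO sham libraries. It was 0.793, 0.666, 1.18 and 1.25 in WT HI and 1.1, 1.36 and 1.29 in WT sham libraries. Thus 3 of 4 KO sham libraries lay above all others, and KO HI overlapped with both WT groups. The ratio of Myh11 averaged 0.524 ± 0.179 in KO HI, 0.884 ± 0.259 in KO sham, 0.325 ± 0.105 in WT HI and 0.517 ± 0.0505 in WT sham. For Mylk the mean was 0.439 ± 0.0981 in KO HI, 0.605 ± 0.0656 in KO sham, 0.349 ± 0.0597 in WT HI and 0.436 ± 0.0293 in WT sham. Pln averaged 0.00688 ± 0.00452 in KO HI, 0.0124 ± 0.00530 in KO sham, 0.00163 ± 0.000706 in WT HI and 0.00596 ± 0.00105 in WT sham. Per unit of Pdgfrb, the HI groups were below the sham groups of the same genotype for these 4 members, and for Pln every WT HI library was below every other library. Relative to its size, the ratio of Des varied least between group means among these 5, with 0.142 ± 0.0296 in KO HI, 0.143 ± 0.0178 in KO sham, 0.116 ± 0.00825 in WT HI and 0.105 ± 0.00915 in WT sham.

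**Figure D3:**
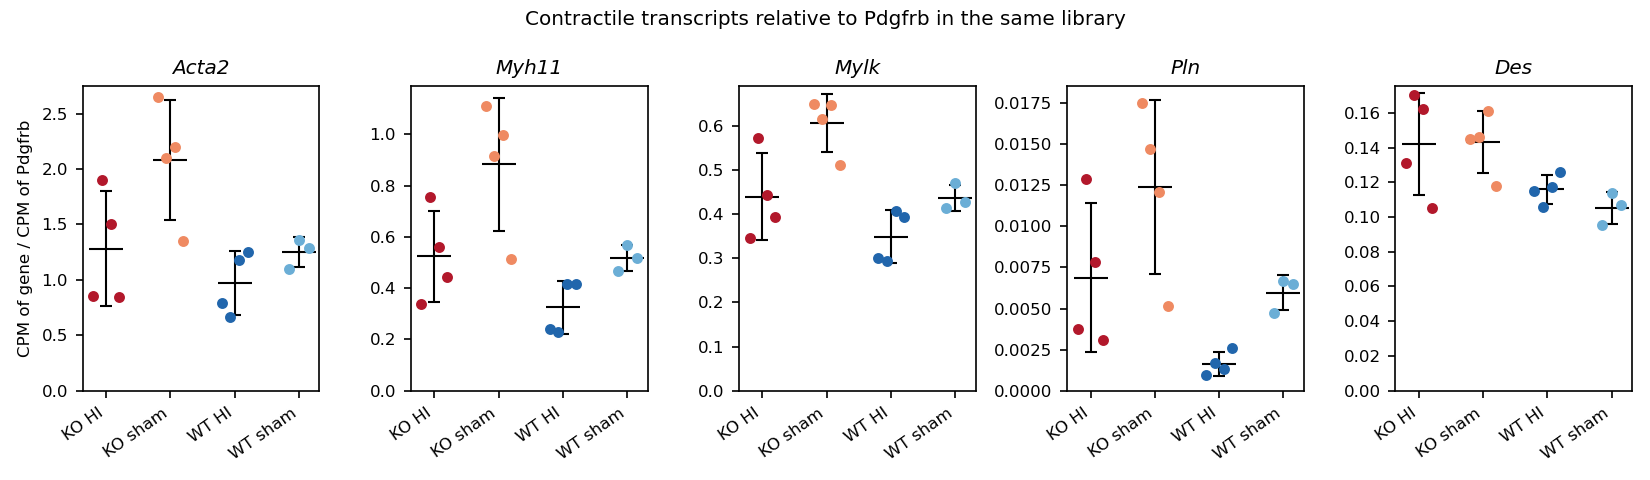
CPM of Acta2, Myh11, Mylk, Pln and Des divided by the CPM of Pdgfrb in the same library (vertical axes, linear, from 0), for KO HI, KO sham, WT HI and WT sham; points are libraries, lines are means and bars are SD. For Acta2, 3 of 4 KO sham libraries lie above every library of the other groups.

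Most of the contractile genes moved as a block from library to library. Over the 15 libraries, which share their depth scaling and cell makeup across genes, the Pearson r of log2 CPM between 45 pairs of members ran from 0.12 to 0.99 with a median of 0.87, and 20 pairs were over 0.9. For deviations from the group means the range was 0.46 to 0.99, with a median of 0.88. Each gene was also set against the mean of the other 9. Acta2 and Tagln had an r of 0.99, Myh11 of 0.98, Myl9 of 0.97, Lmod1 of 0.95, and Mylk and Myocd of 0.94. Des (0.77), Cnn1 (0.75) and Pln (0.54) followed the block least. Set against Pdgfrb, the order was different: Des had an r of 0.96 and Mylk of 0.89, Acta2 of 0.72, Myh11 of 0.63, Cnn1 of 0.42 and Pln of 0.02.

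**Figure D4:**
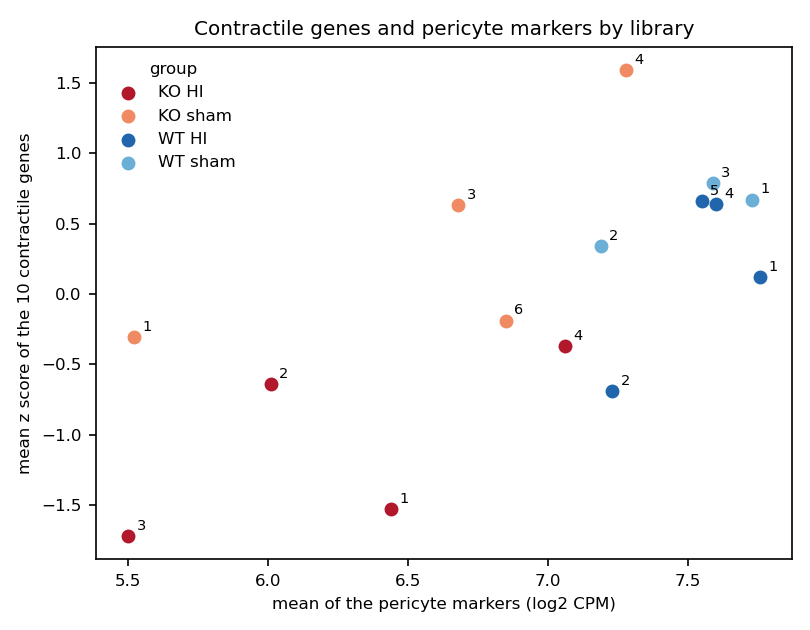
Mean z score of the 10 contractile genes (vertical axis, no unit) against the mean log2 CPM of 17 pericyte markers (horizontal axis) in each library, with the replicate number beside each point. KO sham library 4 has the highest contractile score, 1.59, at a pericyte level of 7.28, and KO HI library 3 the lowest, -1.72, at 5.50; the WT libraries all lie at or above 7.19 on the horizontal axis.

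Outside the members, 10650 genes with a mean of at least 10 CPM were ranked by their Pearson r with the mean profile of the members over the 15 libraries. The most alike was Tpm2, β-tropomyosin, which lies along the actin filament, with an r of 0.989 (0.984 for deviations from group means). Jph2, junctophilin, which holds the sarcoplasmic reticulum near the cell membrane, had 0.985, the plasma membrane calcium pump gene Atp2b4 had 0.981, and the Notch target Hey2, a transcription factor, 0.981. The phosphodiesterase gene Pde3a, which breaks down cyclic nucleotides, had 0.975, and Myom1, a gene for a protein that ties myosin filaments together, 0.973. Ccdc3 (0.967), Olfml2b (0.966), Bmx (0.966) and the laminin-related gene Ntn4 (0.964) completed the 10.

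The other genes of the contractile program were read from the same fit as 5 wider lists, none of which holds a member. After HI in KO, the 33 tested genes of the contractile apparatus and cytoskeleton had a median log2 fold change of -0.42 and 3 were called lower, none higher, where 7.01% of all tested genes were called and 2.13% were lower. Ldb3, a Z-disc scaffold protein, averaged 1.90 ± 0.451 CPM in KO HI and 5.64 ± 2.55 CPM in KO sham (log2 fold change -1.57 ± 0.32, edgeR adjusted p 0.0141). Pdlim3, a PDZ and LIM domain protein of actin filaments, averaged 2.80 ± 0.698 CPM in KO HI and 7.64 ± 4.40 CPM in KO sham (-1.45 ± 0.36, 0.0330). Myh10, a non-muscle myosin heavy chain, averaged 333 ± 75.7 CPM in KO HI and 585 ± 167 CPM in KO sham (-0.81 ± 0.21, 0.0376). These 3 fell after HI in KO, and none of the list was called in WT, where its median was 0.06. Myh10 was lower after HI in WT too, at -0.65 ± 0.23 (edgeR adjusted p 0.199). Its WT HI libraries spanned 429 to 544 CPM and its WT sham libraries 731 to 871 CPM. Pdlim3 had -0.54 ± 0.38 in WT and Ldb3 -0.04 ± 0.34.

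Among 20 genes that control contraction, the median after HI in KO was -0.43, with 1 gene lower and 1 higher, a count near the 7.01% called among all genes. Gucy1a1, a subunit of the nitric oxide receptor guanylyl cyclase, averaged 71.2 ± 24.1 CPM in KO HI and 135 ± 39.8 CPM in KO sham (log2 fold change -0.92 ± 0.24, edgeR adjusted p 0.0350). Rgs2, which damps signalling of constrictor receptors, averaged 86.9 ± 10.4 CPM in KO HI and 53.1 ± 5.77 CPM in KO sham (0.71 ± 0.14, 0.0123). Ppp1r12b, a subunit of the phosphatase that reverses light chain phosphorylation, missed the threshold at -1.12 ± 0.32 (0.0540). Of 20 ion channel and calcium handling genes 3 fell after HI in KO (2.13% of all genes were called lower), and the list's median was -0.45. Cacnb2, a calcium channel subunit, averaged 7.21 ± 0.869 CPM in KO HI and 12.5 ± 3.55 CPM in KO sham (-0.79 ± 0.18, 0.0214). Ano1, a calcium-activated chloride channel, averaged 39.8 ± 15.3 CPM in KO HI and 96.6 ± 50.1 CPM in KO sham (-1.28 ± 0.33, 0.0367), and Cacna1h, a T-type calcium channel, 19.3 ± 4.36 CPM in KO HI and 35.4 ± 13.8 CPM in KO sham (-0.87 ± 0.24, 0.0493). None of either list was called after HI in WT, but Cacnb2 and Gucy1a1 had similar values there. In WT, Cacnb2 had -0.81 ± 0.19 (edgeR adjusted p 0.0522) and Gucy1a1 -0.79 ± 0.25 (0.155). Cacnb2 spanned 5.03 to 6.43 CPM in WT HI and 9.95 to 10.6 CPM in WT sham. Ano1 had -0.62 ± 0.35 in WT, Cacna1h -0.30 ± 0.26 and Rgs2 0.07 ± 0.15.

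Of 19 tested constrictor and dilator receptors none was called after HI in KO, where the median was -0.44; the serotonin receptor Htr1b had -0.80 ± 0.28 with an edgeR adjusted p of 0.110. Of 20 genes of myocardin and SRF transcription and of Notch signalling in mural cells 2 fell after HI in KO, with a median of -0.58 and the same share of 2.13% over all genes. Hey1, a Notch target, averaged 29.4 ± 6.86 CPM in KO HI and 59.7 ± 9.61 CPM in KO sham (log2 fold change -1.02 ± 0.19, edgeR adjusted p 0.0101). Foxo4, a transcription factor that binds myocardin, averaged 45.9 ± 2.32 CPM in KO HI and 60.4 ± 4.23 CPM in KO sham (-0.40 ± 0.07, 0.00968). Foxo4 was the only gene of the 5 lists called after HI in WT, at 51.4 ± 3.08 CPM in WT HI and 67.2 ± 1.52 CPM in WT sham (-0.39 ± 0.08, 0.0257). Notch3, the receptor of mural cells, missed the threshold in KO at -1.0 ± 0.29 (0.0586).

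Between genotypes after HI, many genes of the wider lists were lower in KO. In KO HI against WT HI, 18 of 33 genes of the contractile apparatus and cytoskeleton were lower, with a median log2 fold change of -0.82; among all tested genes 12.4% were called and 6.46% were lower. Among the 18 were Myh9, Actn1, Vcl, Vim, Tpm1 (-1.0 ± 0.29) and Cald1 (-1.10 ± 0.32), and the smooth muscle actin Actg2 (-1.43 ± 0.40, edgeR adjusted p 0.0368). Of 20 transcription genes 10 were lower, Srf (-0.59 ± 0.14, 0.0212), Klf4, Notch3, Hey1 and Heyl among them, and 1, Mef2c, was higher (0.76 ± 0.15, 0.0106). Of the control genes 3 were lower (Ppp1r14a, Gucy1b1 and Rgs4) and Rgs2 was higher at 1.11 ± 0.14 (0.00448). Of the receptors 3 were lower (Avpr1a, Ednra and Ptgir), and of the ion channels 1, Kcnmb1 (-1.19 ± 0.32, 0.0292). In sham and in the difference of responses, none of the 5 lists had a gene called by edgeR (0.0135% and 0% of all genes). The 1 ion channel of 20 is below the share over all genes. With the replicate number as a block none of the 5 lists had a gene called between genotypes after HI (0.141% of all genes), and after HI in KO the contractile apparatus had 1 and the other lists 0 (0.491%). With the pericyte covariate, the contractile apparatus had 2 called genes and the transcription genes 3 between genotypes after HI (15.7% of all genes), and after HI in KO the contractile apparatus had 12 and the transcription genes 10 (26.5%). These counts too moved with single libraries. For the contractile apparatus 0 were called after HI between genotypes without WT HI library 1 or 4, 1 without WT HI library 5, 3 without KO HI library 1, 6 without KO HI library 3, 10 without KO HI library 2 and between 12 and 23 without any other library; the share over all genes was 3.24%, 3.63%, 3.76%, 4.51%, 6.96% and 12.3% in those 6 fits and between 9.22% and 24.4% in the others. For the transcription genes the count ran from 3 to 14. After HI in KO, leaving out 1 library at a time gave 0 to 13 called genes of the contractile apparatus, 1 to 6 of the control genes, 0 to 7 of the ion channels and 2 to 9 of the transcription genes, each highest without KO sham library 1, where 13.0% of all genes were called, against 2.39% to 10.8% without any other library.

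**Figure D5:**
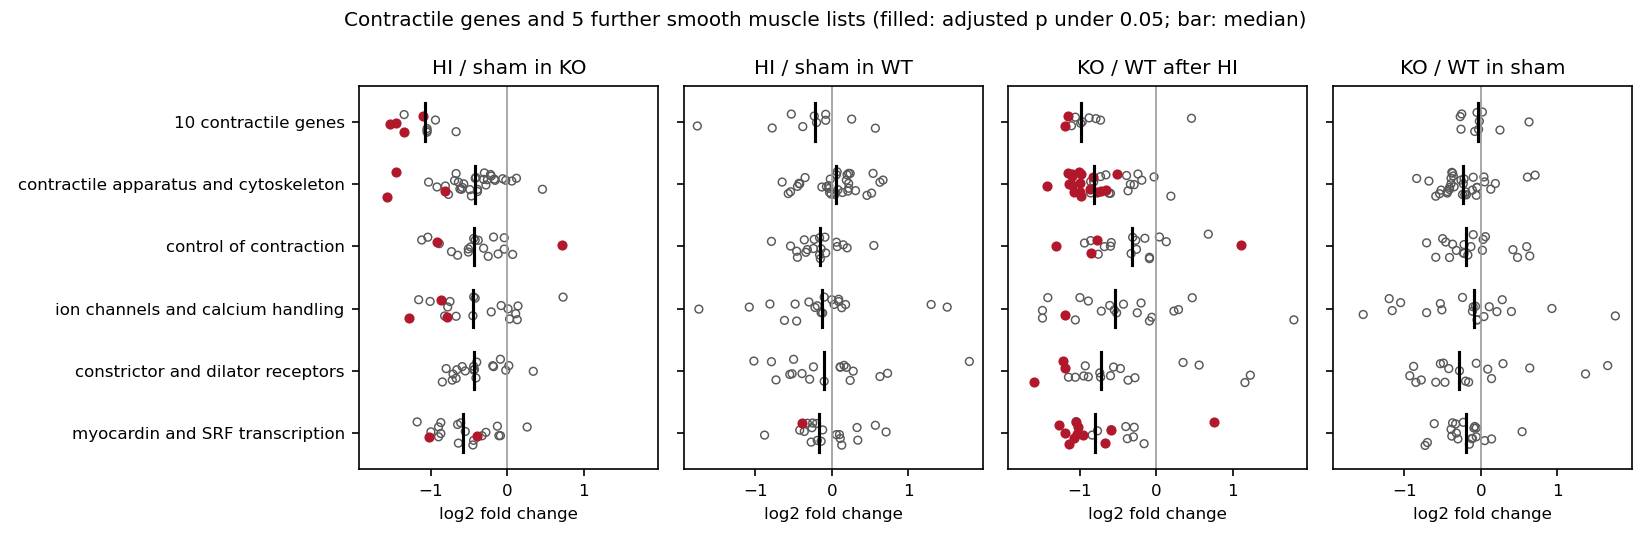
Fitted log2 fold change (horizontal axis) of the 10 contractile genes and of 5 wider lists of smooth muscle genes in 4 comparisons; each circle is 1 gene, filled where the edgeR adjusted p is under 0.05, and the vertical bar is the median of the list. The medians of the contractile genes are -1.07 for KO HI over KO sham, -0.21 for WT HI over WT sham, -0.98 for KO over WT after HI and -0.04 for KO over WT in sham.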

How the data were processed

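The authors deposited one table of expected counts (RSEM-type read estimates, not normalized); its header states no unit, which was inferred because 3.12% to 3.92% of the values in each library were fractional. Tools listed in the submitters' processing notes are RSEM 1.3.1, DESeq2 1.4.5, HISAT2 2.1.0, Bowtie2 2.4.4 and Bowtie, and the build listed is mm39; their roles are not given in the sources used here. Of 65535 lines, 17892 carried values and 17862 were matched to a symbol; the table ends at a length that may have cut it short. All 150 values of the members were whole. Within 50-base words of the principal transcripts, 0.406% of Myh11 and 0.352% of Acta2 are shared with other genes, and at most 0.0205% of the other members.

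Counts were rounded, filtered with filterByExpr (14853 genes) and fitted as 4 group means over 15 libraries with edgeR 4.0.16 in R 4.3.3 (TMM, glmQLFit, glmQLFTest; biological coefficient of variation 38.6%), with Benjamini-Hochberg adjustment over all tested genes and calls at 0.05. CPM are scaled to TMM library sizes, and SE are derived from the edgeR test. Lengths come from GENCODE M21, an older build than that of the counts. The script was tested on simulated counts. DESeq2 1.42.0 and limma-voom (limma 3.58.1) were alternatives, beside RLE scaling, no filter, 2-group fits, a replicate block, each library left out, the 5 libraries rich in neuronal RNA left out, and marker covariates. Named genes were all members, up to 3 genes per wider list with the smallest p after HI in KO, and the 10 genes of most similar profile; other genes of the wider and marker lists were named after their values were seen. The members and lists were chosen with earlier results of these data known.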

Additional observations from a re-analysis of the deposited data

How the results depend on the processing

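The counts of contractile genes called lower depended on the processing, and the causes were not tested. Percentages here are the shares of all genes called in the same fit. After HI in KO, 4 members were called (7.01%). DESeq2 called 8 (13.0%), limma-voom 2 (6.79%), no filter on low counts 1 (5.03%), the 2 groups alone 0 (0.111%) and the replicate block 0 (0.491%). The fit without the 5 libraries with high neuronal markers called 1 (16.8%), the neuronal and choroid plexus covariates 9 (17.3%) and the pericyte covariate 8 (26.5%). Leaving out 1 library at a time gave 0 to 9 (2.39% to 13.0%). After HI in WT, 0 were called (1.82%). DESeq2 (5.26%), the 2 groups alone (17.1%), the neuronal and choroid plexus covariates (9.16%) and the pericyte covariate (6.51%) each called 1. Leaving out 1 library gave 0 to 1 (0.319% to 3.75%). For KO against WT after HI, 2 were called (12.4%). RLE scaling gave 5 (13.5%), DESeq2 6 (22.9%), limma-voom 5 (14.5%) and the replicate block 0 (0.141%). The fit without the 5 libraries gave 1 (23.5%), the neuronal and choroid plexus covariates 1 (17.9%) and the pericyte covariate 0 (15.7%). Leaving out 1 library gave 0 to 6 (3.24% to 24.4%). KO against WT in sham had 0 members called in all 24 alternatives, and the difference of responses 0 in its 23, since the 2-group fits give none. The labels do not say whether replicate numbers pair the samples. The correlation of deviations ran from -0.78 to 0.79 over same-numbered libraries. Differently numbered libraries were not set beside them, so this range cannot decide whether the numbers mark a pairing or a batch. With the replicate block, 73 genes in all were called after HI in KO (0.491%).

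Some signs changed. With the pericyte covariate, KO against WT after HI turned to 0.07 for Myh11, against -0.79 without it, and to 0.06 for Myocd, against -0.73. After HI the pericyte level did not overlap between the genotypes, as given above. In sham that covariate gave 0.43 for Acta2, 0.41 for Tagln, 0.42 for Mylk, 0.48 for Myocd, 0.48 for Lmod1, 0.25 for Myl9 and 0.36 for Des. In sham, the neuronal and choroid plexus covariates gave 0.08 for Acta2, 0.06 for Tagln, 0.04 for Myocd and 0.04 for Lmod1, and the fit without the 5 libraries 0.11, 0.10, 0.10 and 0.01 for Acta2, Tagln, Myocd and Lmod1. Myh11 in sham was -0.12 with limma-voom and -0.20 with the replicate block, and the difference of responses of Pln was -0.12 without the 5 libraries. Leaving out 1 library gave ranges across 0 for Tagln (-0.22 to 0.10) and Lmod1 (-0.15 to 0.06) after HI in WT, for the Pln difference (-0.17 to 0.54), and in sham for Acta2 (-0.40 to 0.13), Tagln (-0.38 to 0.14), Myh11 (-0.39 to 0.20), Pln (-0.07 to 0.49), Myocd (-0.43 to 0.10) and Lmod1 (-0.42 to 0.10). The log2 fold changes of all 10 members after HI in KO were negative in all 24 alternatives. Depth limits Pln and Myocd most, which had as few as 17 and 21 reads in a library.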
